A study of Mus musculus with 96 samples.

Results

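The 10 genes described here mark the sinusoidal endothelial cells of the liver: Stab1, Stab2, Clec4g, Lyve1, Pecam1, Kdr, Oit3, Bmp2, Gpr182 and Fcgr2b. They were chosen by symbol, and all 10 were found among the 13094 entries of a table of gene expression values. The table covers the livers of 96 male mice of strain C57BL/6J, between 3 and 4 months old. The 48 LKO mice carried floxed Rbbp5 on both alleles and 1 copy of Cre recombinase under the albumin promoter, Rbbp5 (flox/flox); Alb-Cre(+/-). The 48 Flox mice were littermates with the same floxed alleles and no Cre, Rbbp5 (flox/flox); Alb-Cre(-/-). All mice were kept under 12 h of light and 12 h of darkness for 2 weeks and then for 24 h in constant darkness. Livers were then taken every 2 h for 48 h, from circadian time (CT) 0 to CT46, with 2 mice of each genotype at each of 24 time points. The series asks what RBBP5, a shared subunit of histone H3 lysine 4 methyltransferase complexes, does for liver rhythms of about 12 h. The albumin promoter drives Cre in hepatocytes, so sinusoidal endothelial cells are not the cells it targets.

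Sinusoidal endothelial cells line the liver's capillaries. Their walls have open pores and no continuous basement membrane, so plasma reaches the hepatocytes directly. They clear waste molecules from blood through scavenger receptors, and they send signals to hepatocytes, among them the bone morphogenetic proteins that set hepcidin expression and with it iron balance. VEGF from hepatocytes, read by the receptor that Kdr encodes, helps to keep them in this state.

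On mm10 (GRCm38, GENCODE M21 annotation) the scavenger and uptake receptors lie on chromosome 14 (Stab1, 31139013 to 31168641), chromosome 10 (Stab2, 86841198 to 87008025), chromosome 8 (Clec4g, 3707064 to 3720651), chromosome 7 (Lyve1, 110850607 to 110863239) and chromosome 1 (Fcgr2b, 170958617 to 170976547). The adhesion and signalling receptors lie on chromosome 11 (Pecam1, 106654217 to 106750628), chromosome 5 (Kdr, 75932827 to 75978458) and chromosome 10 (Gpr182, 127747276 to 127751732). The genes of secreted proteins lie on chromosome 10 (Oit3, 59422958 to 59441778) and chromosome 2 (Bmp2, 133552159 to 133562885). Bmp2 lies on the plus strand and the other 9 lie on the minus strand. The longest coding transcript ran from 1441 bases for Clec4g to 8228 bases for Stab2.

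The 250 bases before the transcription start were searched where a window was at hand, since the members varied together across libraries, for letters that endothelial transcription factors are known to bind. These were the ETS core AGGAAG and the GATA motifs AGATAA and TGATAA, on both strands. RefSeq windows on GRCm38.p6 were matched for 5 of the 10 members, and the start is that of RefSeq. The Fcgr2b window, 170976072 to 170976321, lies wholly within the GENCODE gene given above. Part of the Stab2 window, 87007943 to 87008192, with its ETS core match, lies within the GENCODE Stab2 gene. The last few bases of the Kdr window lie within the GENCODE Kdr gene. The ETS core was present in 3 of these 5, Stab1, Stab2 and Clec4g, against 29.5% of 32851 promoter windows in all. A GATA motif was present in 0 of the 5, against 16.6% of all windows. A match is a description of letters and not of a bound site. Windows of 3 members are shown, the lectin gene with 3 matches, a stabilin gene with 1 match and Kdr with none. Each reads 5′ to 3′ along its gene, on the minus strand, with ETS core letters of either strand in capitals. Of the 3 matches in Clec4g, 2 share letters.
Clec4g, chr8:3720652-3720901: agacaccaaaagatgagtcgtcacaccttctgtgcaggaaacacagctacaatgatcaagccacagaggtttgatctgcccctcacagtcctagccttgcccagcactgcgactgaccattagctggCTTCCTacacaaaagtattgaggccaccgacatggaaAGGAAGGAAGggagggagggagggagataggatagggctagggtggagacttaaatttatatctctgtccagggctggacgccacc
Stab1, chr14:31168642-31168891: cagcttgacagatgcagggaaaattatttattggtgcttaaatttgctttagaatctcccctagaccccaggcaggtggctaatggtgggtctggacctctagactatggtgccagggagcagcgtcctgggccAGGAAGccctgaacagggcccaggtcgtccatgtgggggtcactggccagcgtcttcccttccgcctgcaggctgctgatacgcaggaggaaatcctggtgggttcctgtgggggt
Kdr, chr5:75978456-75978705: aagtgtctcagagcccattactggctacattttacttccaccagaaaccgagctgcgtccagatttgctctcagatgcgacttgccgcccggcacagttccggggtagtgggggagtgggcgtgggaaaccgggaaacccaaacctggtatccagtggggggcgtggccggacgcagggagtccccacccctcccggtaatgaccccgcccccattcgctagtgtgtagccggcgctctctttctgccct

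The unit of the values is FPKM, which scales fragments by transcript length and library total, so levels can be set side by side between genes. No member was listed at 0 in any of the 96 libraries. Clec4g, a C-type lectin, was the highest, at 16.1 ± 4.54 FPKM over all libraries (SD, n = 96). Fcgr2b, the inhibitory Fc receptor that takes up small immune complexes in these cells, followed at 12.7 ± 6.79 FPKM. Gpr182, an atypical chemokine receptor, averaged 6.02 ± 2.78 FPKM. Oit3, a secreted protein with a zona pellucida domain, averaged 3.36 ± 1.49 FPKM. The other 6 were low. Pecam1, a junctional adhesion molecule of all endothelium, averaged 2.30 ± 0.706 FPKM, and Bmp2 averaged 1.90 ± 0.690 FPKM. Kdr averaged 1.67 ± 0.897 FPKM. The stabilins, scavenger receptors for hyaluronan and modified lipoproteins, averaged 1.61 ± 0.628 FPKM for Stab2 and 1.48 ± 0.644 FPKM for Stab1. Lyve1, a hyaluronan receptor, averaged 0.979 ± 0.761 FPKM. In this order each neighbouring pair differed by less than the larger of its SDs. The 9 genes other than Lyve1 passed the filter of a mean of at least 1 FPKM, which kept 9901 entries, and were tested. For Lyve1 the values come from the fit with no filter.

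The markers of the labelled tissue were present: 9 hepatocyte genes summed to between 20469 and 39373 FPKM in LKO and between 26933 and 42407 FPKM in Flox libraries of CT0 to CT40. Total FPKM per library ran from 313376 to 452463 in LKO and from 328036 to 498760 in Flox, and depth is unknown since FPKM keeps no counts. Rbbp5 averaged 2.46 ± 0.774 FPKM in LKO and 3.27 ± 0.586 FPKM in Flox (SD, n = 48 each), and its ranges overlapped. In the 6 libraries labelled LKO at CT42 to CT46 its level was 3.13 to 4.23 FPKM, against 1.55 to 3.56 FPKM in the 6 Flox libraries of those times, so there the targeted gene goes against the label. The same 6 LKO libraries held 8 alveolar macrophage markers at a summed 5098 to 10334 FPKM, against 14.8 to 62.3 FPKM in Flox, and none of the 8 was listed at 0 in all libraries. For results that rest on all times or on the second day, values without the 12 libraries of CT42 to CT46 are given beside those with them. The ribosomal RNA precursor Rn45s reports on library composition. It lay between 447 and 21274 FPKM in LKO libraries and between 817 and 2518 FPKM in Flox libraries at CT0 to CT22. On the second day its mean and spread in Flox were larger, as given below with the day change.

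Over all time points the members did not all move one way. Fcgr2b, Stab1 and Stab2 were higher in LKO, Kdr was lower, and the other 5 did not pass the test. The test was limma's moderated test on log2(FPKM + 1) with a factor for time, adjusted over the 9901 entries, and a call means an adjusted p of at most 0.05. By it 39.4% of all entries were higher and 19.1% lower, so 3 of 9 and 1 of 9 stand near the background. In bulk liver, fewer cells of a type and less RNA per cell cannot be told apart. P-values of the limma fits rest on the spread between libraries, 1 per mouse, that each fit leaves. That spread also holds changes with time that the fit does not model.

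Fcgr2b ran from 5.38 to 42.2 FPKM in LKO, with a median of 13.1 FPKM, against 3.21 to 19.0 FPKM in Flox, with a median of 9.68 FPKM. The groups overlapped, with LKO higher at 18 of 24 time points. The log2 difference was 0.53 ± 0.10 (SE; limma adjusted p = 3.28e-06), and without CT42 to CT46 it was 0.35 and still called. Stab1 ran from 0.619 to 3.94 FPKM in LKO, with a median of 1.49 FPKM, against 0.571 to 2.35 FPKM in Flox, with a median of 1.265 FPKM. It was higher in LKO at 19 of 24 time points, by a log2 difference of 0.23 ± 0.06 (limma adjusted p = 0.000696). Stab2 was higher in LKO at 17 of 24 time points, by 0.20 ± 0.06 (limma adjusted p = 0.00162). Both stabilins kept their direction under quantile normalization, at 0.11 for Stab1 and 0.09 for Stab2, and without letter B, at 0.15 for Stab1 and 0.16 for Stab2, and were called under neither. Kdr was lower in LKO at 14 of 24 time points, by a log2 difference of -0.21 ± 0.09 (limma adjusted p = 0.0430). Its call was lost with a pseudocount of 0.1, with the Rn45s level as a covariate, with a replicate block and without either replicate letter, and its direction held under each. Without CT42 to CT46 the differences were 0.25 for Stab1, 0.23 for Stab2 and -0.25 for Kdr, all called, against 32.3% of entries higher and 30.6% lower, and median-ratio scaling kept the 4 calls.

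**Figure D1:**
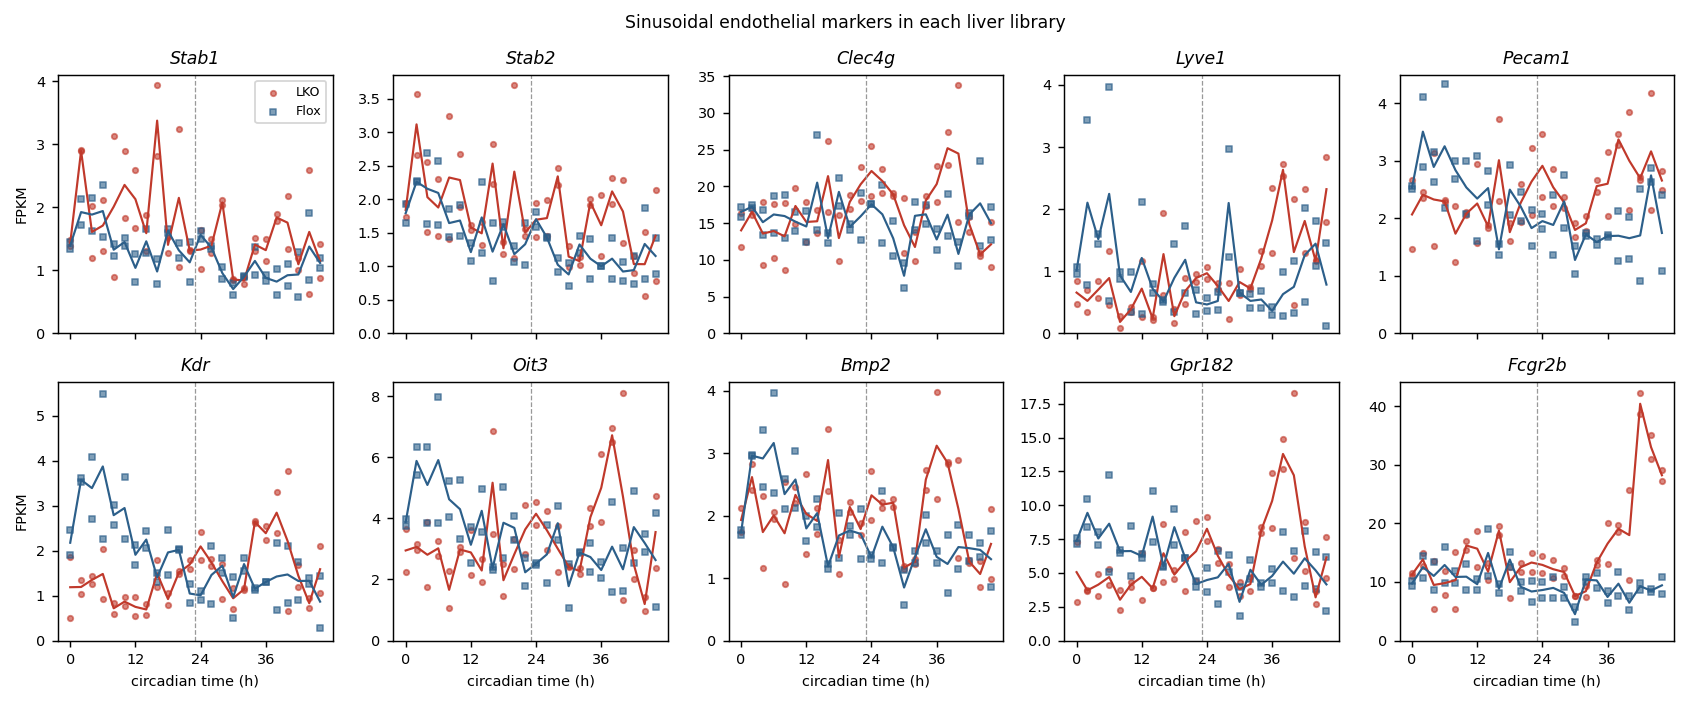
FPKM of each member (vertical axes, from 0) against circadian time in hours for all 48 LKO (circles) and 48 Flox libraries (squares); each point is 1 library, lines join the means of 2 libraries, and the dashed line parts the first day from the second. Kdr, Oit3 and Gpr182 lie lower in LKO at CT0 to CT10 and most members lie higher at CT36 to CT40, and Fcgr2b lies at 27.3 to 42.2 FPKM in the libraries labelled LKO at CT42 to CT46.

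The genotype difference varied with time for most members, as it did for most entries. It differed among 8 windows of 3 time points, with 6 libraries per genotype each, for 7 of the 9 tested members (limma F test), against 80.6% of all entries, so the members' count is near the background. It was called for the same 7 without CT42 to CT46, against 60.9% of entries. The exceptions were Stab1 (limma adjusted p = 0.162) and Stab2 (limma adjusted p = 0.567).

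At the start of the series a VEGF receptor, a chemokine receptor and a secreted protein were lower in LKO. At CT0 to CT4, Kdr ran from 0.503 to 1.87 FPKM in LKO, with a median of 1.30 FPKM, against 1.89 to 4.08 FPKM in Flox, with a median of 3.12 FPKM. The ranges did not overlap, which was the case for 6.82% of all entries in this direction. The log2 difference was -0.85 ± 0.20 (limma adjusted p = 0.000478). Gpr182 had a median of 3.71 FPKM in LKO (2.86 to 7.25 FPKM) and of 7.79 FPKM in Flox (7.04 to 10.45 FPKM), and only the highest LKO library reached into the Flox range. Its log2 difference was -0.82 ± 0.25 (limma adjusted p = 0.00441). Oit3 had a median of 3.06 FPKM in LKO and 4.70 FPKM in Flox, a log2 difference of -0.60 ± 0.25 (limma adjusted p = 0.0370). These were the 3 of 9 members called, all lower, against 41.6% of entries lower and 10.9% higher. The count of members thus did not exceed the background. Lyve1, in the fit with no filter, was also lower, by -0.58 (limma adjusted p = 0.0453). In this window Rbbp5 itself lay at 2.28 to 4.06 FPKM in LKO and 2.43 to 4.32 FPKM in Flox, so its ranges overlapped. The LKO libraries held 447 to 15894 FPKM of Rn45s, against 817 to 1483 FPKM in the Flox libraries. With that level as a covariate Kdr and Gpr182 were called lower, against 24.2% of entries, and Oit3, at -0.54, was not.

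At CT6 to CT10 the same 3 genes were lower. Kdr ran from 0.594 to 2.04 FPKM in LKO, with a median of 0.884 FPKM, against 2.25 to 5.50 FPKM in Flox, with a median of 2.79 FPKM. Its ranges did not overlap, nor did those of Oit3 (1.05 to 3.26 FPKM in LKO and 3.34 to 7.97 FPKM in Flox), against 3.91% of entries. The log2 differences were -1.04 ± 0.20 for Kdr (limma adjusted p = 0.000180), -0.74 ± 0.25 for Oit3 (limma adjusted p = 0.0121) and -0.71 ± 0.25 for Gpr182 (limma adjusted p = 0.0148). Of all entries 31.0% were lower and 17.0% higher, so 3 of 9 members lower stands near the background. The median log2 difference of all entries was -0.21 at CT0 to CT4 and -0.10 at CT6 to CT10, and median-ratio scaling, which brings it to about 0, left Kdr and Gpr182 called in both windows, against 26.3% and 26.5% of entries lower. After that scaling Oit3 differed by -0.37 at CT0 to CT4, not called, and by -0.63 at CT6 to CT10, called. Without letter A none of the 9 members was called at CT0 to CT4, where 0 of 9901 entries were called, and 3 were called lower at CT6 to CT10, against 34.1% of entries. Without letter B 2 were called lower at CT0 to CT4, where 4938 of 9901 entries were called in either direction, and none at CT6 to CT10, where 1 of 9901 entries was called. The fits that called no member thus called next to no entry. Kdr, Gpr182 and Oit3 stayed negative in each of these fits.

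At CT12 to CT16 Stab1 was the member called higher. It ran from 1.30 to 3.94 FPKM in LKO, with a median of 2.24 FPKM, against 0.787 to 1.65 FPKM in Flox, with a median of 1.22 FPKM. All 6 LKO libraries lay above the Flox median. The log2 difference was 0.61 ± 0.16 (limma adjusted p = 0.00279), while Kdr was still lower, by -0.55 ± 0.20 (limma adjusted p = 0.0259). Of all entries 18.3% were higher and 21.0% lower. Neither Stab1 nor Kdr was called without letter B, at 0.42 and -0.59, where 1.34% of entries were called at all. Kdr was not called without letter A either, at -0.50, nor with Rn45s as a covariate, at -0.45, against 18.5% and 11.1% of entries lower. After median-ratio scaling Fcgr2b was called too, at 0.52. From CT18 to CT34 no member was called in any of the 3 windows by limma. At an unadjusted p under 0.05 the counts were 0 at CT18 to CT22, 3 at CT24 to CT28 and 0 at CT30 to CT34. Few entries were called there at all: 0.535% higher and 0.232% lower at CT18 to CT22, 1.53% and 0.394% at CT24 to CT28, and 5% and 0.727% at CT30 to CT34.

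At CT36 to CT40 all 9 tested members were higher in LKO, against 32% of all entries higher and 5.64% lower. The chemokine receptor Gpr182 ran from 6.13 to 18.3 FPKM in LKO, with a median of 12.5 FPKM, against 3.24 to 8.04 FPKM in Flox, with a median of 4.77 FPKM. Its log2 difference was 1.06 ± 0.25 (limma adjusted p = 0.000401). Fcgr2b ran from 10.3 to 25.6 FPKM in LKO, with a median of 19.1 FPKM, against 5.22 to 11.7 FPKM in Flox, with a median of 7.67 FPKM. In both genes the groups overlapped at the edge. The log2 difference of Fcgr2b was 1.07 ± 0.21 (limma adjusted p = 2.65e-05). Stab1 was the member whose ranges did not overlap, at 1.15 to 2.18 FPKM in LKO and 0.615 to 1.09 FPKM in Flox, against 15.5% of entries in this direction.

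Among the other members Oit3 differed by 0.79 ± 0.25, Clec4g by 0.76 ± 0.20, Bmp2 by 0.63 ± 0.15 and Pecam1 by 0.56 ± 0.16 on the log2 scale. Kdr, which had been lower on the first day, was higher here, by 0.51 ± 0.20 (limma adjusted p = 0.0385). Stab1 and Stab2 differed by 0.49 each. The median over the 9 members was 0.63, and over all entries it was 0.18. After median-ratio scaling the 9 kept their direction and 6 were called, Clec4g, Pecam1, Oit3, Bmp2, Gpr182 and Fcgr2b, against 17.9% of entries higher. After quantile normalization Clec4g, Bmp2, Gpr182 and Fcgr2b were called, against 16.7% of entries higher. Without letter B none of the 9 was called, though their differences still ran from 0.41 to 0.97, and 10.6% of entries were higher. Without letter A 7 were called, against 20.7% of entries. Lyve1, in the fit with no filter, had a median of 2.25 FPKM in LKO and 0.381 FPKM in Flox and differed by 0.85 (limma adjusted p = 0.00424). In this window the summed level of 8 alveolar macrophage markers was 35.6 to 67.8 FPKM in LKO and 17.4 to 63.0 FPKM in Flox, and that of 10 stellate cell markers 122.5 to 170.2 FPKM in LKO and 61.7 to 112.6 FPKM in Flox. No marker of either list was listed at 0 in all libraries. Their part in the result was not tested.

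At CT42 to CT46 Fcgr2b was far higher in the libraries labelled LKO. These 6 ran from 27.3 to 42.2 FPKM, with a median of 33.0 FPKM, against 7.94 to 10.9 FPKM in Flox, with a median of 8.72 FPKM. The ranges did not overlap, which was the case for 39.8% of entries in this direction. The log2 difference was 1.78 ± 0.21 (limma adjusted p = 6.65e-12), and it was 1.15 after median-ratio scaling. Pecam1 was higher by 0.36 ± 0.16 (limma adjusted p = 0.0354), but this turned to -0.09 with median-ratio scaling and to -0.45 with quantile normalization. The median of all entries was 0.49 here, with 59.1% of entries higher and 10.8% lower, while the median over the members was 0.07. After median-ratio scaling 4 of the 9 were called lower, Clec4g, Bmp2, Oit3 and Gpr182, against 34.1% of entries lower, and after quantile normalization 8 were, against 43.4% of entries lower. These are the libraries with alveolar macrophage transcripts, in which B cell markers summed to 9.98 to 19.0 FPKM, against 1.31 to 3.55 FPKM in Flox. Fcgr2b is also known from macrophages and B cells, and the part of those cells in its level was not tested.

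**Figure D2:**
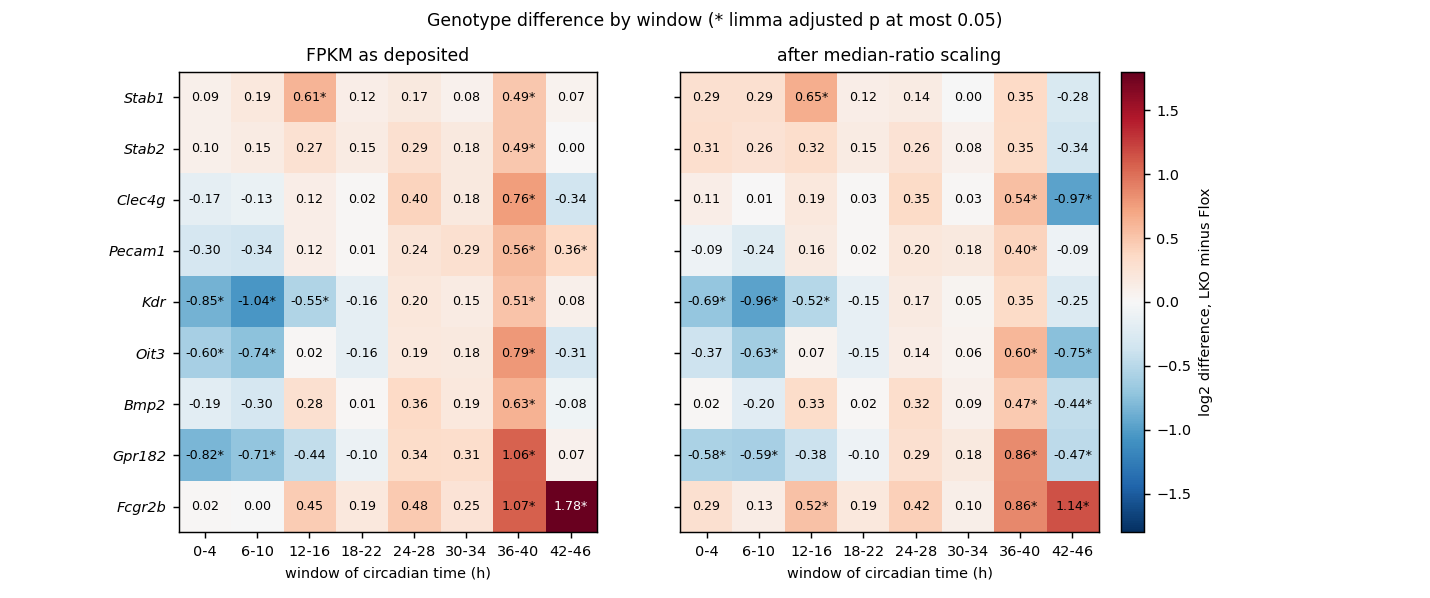
Log2 difference of log2(FPKM + 1), LKO minus Flox, for the 9 tested members (rows) in 8 windows of circadian time (columns; 6 LKO and 6 Flox libraries each), from FPKM as deposited (left) and after median-ratio scaling (right); red is higher in LKO, blue is lower, and a star marks a limma adjusted p of at most 0.05. At CT36 to CT40 the 9 tested members are higher in both panels, Kdr is called lower at CT0 to CT16 in both, and at CT42 to CT46 Pecam1 has 0.36 on the left and -0.09 on the right.

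In the values as deposited the stabilins were lower on the second day in both genotypes. Kdr, Gpr182 and Fcgr2b were lower on it in Flox and higher in LKO. In Flox livers the members fell: 8 of the 9 were lower at CT24 to CT46 than at the same hours a day before, against 33.4% of all entries lower and 9.36% higher. In LKO livers Stab1 and Stab2 fell and Kdr, Gpr182 and Fcgr2b rose, against 57.4% of entries higher and 10.7% lower. The LKO calls of Fcgr2b and Stab2 were lost without CT42 to CT46. After either scaling no member was called higher in LKO.

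In Flox, Kdr averaged 1.31 ± 0.505 FPKM on the second day and 2.44 ± 1.05 FPKM on the first (SD, n = 24 each). It was lower at 11 of 12 hours, by -0.56 ± 0.11 on the log2 scale (SE; limma adjusted p = 0.000128). Gpr182 averaged 4.83 ± 1.70 FPKM on the second day and 7.14 ± 2.09 FPKM on the first, and was lower at 12 of 12 hours, by -0.50 ± 0.13 (limma adjusted p = 0.00142). Bmp2, a ligand that acts on hepcidin expression, was lower at 11 of 12 hours, by -0.38 ± 0.08 (limma adjusted p = 0.000336). Oit3 fell by 0.41, Fcgr2b by 0.35, Pecam1 by 0.32, Stab2 by 0.29 and Stab1 by 0.26 on the log2 scale. Clec4g differed by -0.16, which did not pass the test. The median of all entries was -0.10 in Flox. After median-ratio scaling the direction held for the 9 members and 6 were called, Stab2, Pecam1, Kdr, Oit3, Bmp2 and Gpr182, against 20.3% of entries lower. After quantile normalization Kdr, Bmp2 and Gpr182 were called, against 17.5% of entries lower. Without letter A 4 were called, against 21.5% of entries lower. Without letter B none was, where 0 of 9901 entries were called, and the differences ran from -0.45 to -0.18. Rn45s averaged 3601 ± 3714 FPKM on the second day and 1407 ± 475 FPKM on the first in Flox, and with its level as a covariate 8 members were called lower, against 7.17% of entries. The members other than Clec4g were called lower without CT42 to CT46, against 27.4% of entries.

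In LKO, Gpr182 averaged 7.34 ± 3.90 FPKM on the second day and 4.75 ± 1.79 FPKM on the first, and was higher at 9 of 12 hours, by 0.46 ± 0.13 (limma adjusted p = 0.00103). Kdr averaged 1.77 ± 0.845 FPKM on the second day and 1.15 ± 0.457 FPKM on the first, and was higher at 8 of 12 hours, by 0.33 ± 0.11 (limma adjusted p = 0.00501). Both kept their direction after median-ratio scaling, at 0.23 for Gpr182 and 0.18 for Kdr, and neither was then called. Without CT42 to CT46 both were called, at 0.65 for Gpr182 and 0.46 for Kdr, and so was Clec4g, at 0.30, against 48.4% of entries higher. Fcgr2b rose by 0.38 ± 0.12 (limma adjusted p = 0.00472) with all libraries, and differed by 0.03, not called, without CT42 to CT46. The stabilins went the other way: Stab1 fell by 0.31 ± 0.08 (limma adjusted p = 0.000610) and was lower at 10 of 12 hours, and Stab2 fell by 0.22 ± 0.08 (limma adjusted p = 0.0122) and was lower at 9 of 12 hours. Without CT42 to CT46 Stab1 kept its call at -0.34 and Stab2, at -0.19, did not. Lyve1, in the fit with no filter, was higher by 0.50 in LKO (limma adjusted p = 0.00028) and differed by -0.18 in Flox (limma adjusted p = 0.245).

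The difference between the 2 day changes was tested itself. It was called for 6 of the 9 members, each more positive in LKO, against 59.6% of entries more positive and 9.73% more negative, so the count is near the background. It was not called for Stab1, Stab2 or Clec4g. It was 0.96 ± 0.18 for Gpr182 (limma adjusted p = 3.93e-06), 0.88 ± 0.15 for Kdr (limma adjusted p = 6.13e-07) and 0.73 ± 0.17 for Fcgr2b (limma adjusted p = 0.000172). Oit3, Pecam1 and Bmp2 followed with 0.58, 0.49 and 0.32. The median over all entries was 0.34, and taking it out by median-ratio scaling left Gpr182 at 0.62 and Kdr at 0.66 as the members called more positive, against 31.8% of entries. Under that scaling Stab1 was called more negative in LKO, at -0.29. Quantile normalization gave 0.55 for both Gpr182 and Kdr and 0.40 for Fcgr2b, with Stab1 at -0.43 and Stab2 at -0.30 called negative. Without CT42 to CT46 the difference was 1.23 for Gpr182, 1.10 for Kdr, 0.82 for Oit3, 0.54 for Pecam1, 0.51 for Clec4g, 0.46 for Bmp2 and 0.44 for Fcgr2b, all called, against 51.6% of entries more positive. Gpr182 and Kdr were thus called in the same direction under both scalings and without that window.

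**Figure D3:**
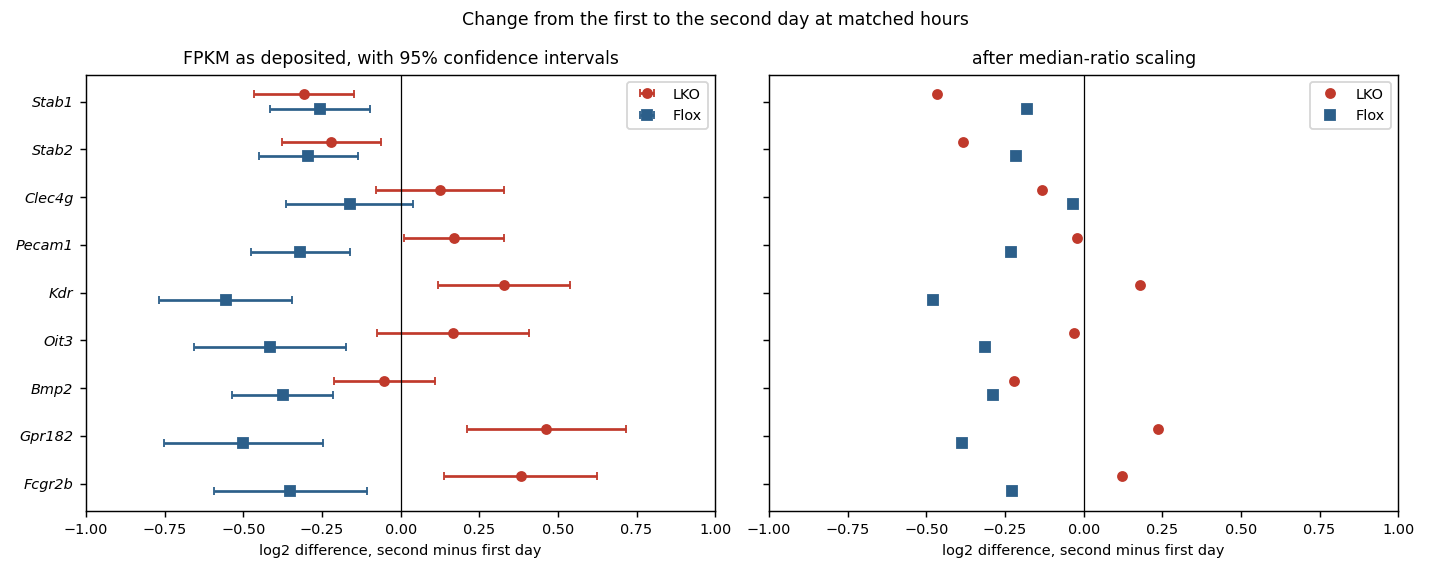
Second minus first day at matched hours (horizontal axes, log2 difference of log2(FPKM + 1)) for the 9 tested members in LKO (circles, above) and Flox (squares, below); left, FPKM as deposited with 95% confidence intervals (24 libraries per day and genotype); right, the same after median-ratio scaling. The 9 Flox values lie below 0 in both panels, the LKO values of Kdr and Gpr182 lie above 0 in both, and those of Clec4g, Pecam1 and Oit3 change sign with the scaling.

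Rhythms were sought as 24 h and 12 h waves around a mean for each genotype and day. A 24 h wave was called in LKO for Fcgr2b, with an amplitude of 0.51 on the log2 scale and a peak at CT18.0 (limma adjusted p = 5.00e-06), and for Gpr182, with an amplitude of 0.28 and a peak at CT16.1 (limma adjusted p = 0.0154), against 58.3% of entries. Both were still called without CT42 to CT46, at 0.27 for Fcgr2b and 0.40 for Gpr182, and after median-ratio scaling Fcgr2b alone was, at 0.41. In Flox it was called for Kdr, with an amplitude of 0.22 and a peak at CT6.62 (limma adjusted p = 0.0367), against 37.9% of entries, a call lost after median-ratio scaling. The 24 h wave differed between genotypes for Fcgr2b (limma adjusted p = 0.00385), against 35.0% of entries, and this call was lost without CT42 to CT46, where 3.25% of entries and, of the members, Kdr were called (limma adjusted p = 0.0429). It was also lost after either scaling, with 20.6% of entries called after median-ratio scaling.

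A 12 h wave, the subject of the series, was called in LKO for Bmp2, Oit3 and Clec4g, against 20.2% of entries. The amplitudes were 0.25, 0.32 and 0.26, with peaks at CT1.17, CT1.24 and CT1.66 and again 12 h later. None of the 3 was called without CT42 to CT46, nor without either letter, and those fits called 13, 0 and 9 of the 9901 entries. After median-ratio scaling 6 members were called, Stab1, Stab2 and Gpr182 beside these 3, against 20.2% of entries, and after quantile normalization 7 were, against 25.7%. In Flox no member was called by limma, and 0 had an unadjusted p under 0.05, against 4.30% of entries called. Whether the 12 h waves of the 2 genotypes differed depended on the scaling. As deposited no member was called by limma, 2 had an unadjusted p under 0.05, and 15.6% of entries were called. After median-ratio scaling Clec4g, Bmp2 and Oit3 were called (limma adjusted p = 0.0443, 0.0333 and 0.0355), against 12.7% of entries. After quantile normalization Bmp2 and Oit3 were called, against 10.8% of entries. No member and 0 of 9901 entries were called without CT42 to CT46, where 1860 entries had an unadjusted p under 0.05.

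Across libraries most pairs of members were positively correlated. Over the 48 Flox libraries, Pearson's r of log2(FPKM + 1) ran from 0.247 to 0.915 over the 45 pairs, with a median of 0.702 (median Spearman's rho 0.640). Over all 49009950 pairs of the 9901 tested entries the median r in these libraries was 0.108, with quartiles of -0.165 and 0.379, and over the 36 pairs of the 9 tested members it was 0.719. Of the pairs 44 passed at an adjusted p of 0.05 by permutation, for r and for rho (smallest p possible 1e-05). Leaving out the 2 libraries farthest from the median of the first gene gave a median r of 0.643 and a lowest of 0.195. The closest pair was Kdr and Oit3. The libraries share scaling and time points, so r describes these libraries. Over the 42 LKO libraries of CT0 to CT40, r ran from 0.0129 to 0.884, with a median of 0.653, and 38 pairs passed for r and 37 for rho. The median r over all pairs of tested entries was 0.204 there, with quartiles of -0.092 and 0.480, against 0.654 over the 36 pairs.

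Stab1 and Stab2 varied together in both genotypes, with r of 0.873 in LKO and 0.909 in Flox. With Kdr, Stab1 had an r of 0.0129 in LKO and 0.668 in Flox. With Gpr182 it had an r of 0.0354 in LKO and 0.568 in Flox. The difference between genotypes in r was not tested. The mean standardised level of the 9 tested members was taken within each genotype, so its values cannot be compared between genotypes. Among the 48 Flox libraries it ran from -2.39 at CT30 with letter B to 2.16 at CT6 with letter B. Among the 42 LKO libraries of CT0 to CT40 it ran from -1.81 at CT8 with letter A to 1.87 at CT40 with letter A.

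**Figure D4:**
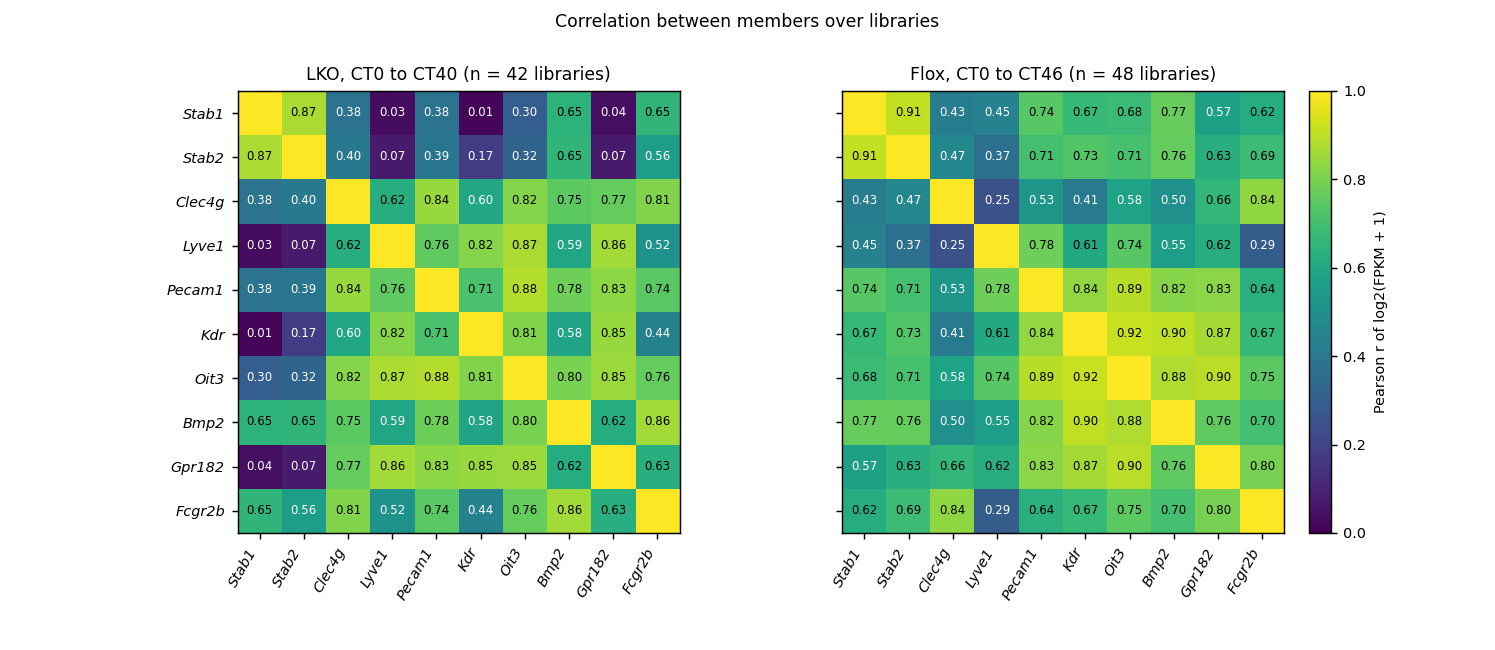
Pearson's r of log2(FPKM + 1) between each pair of the 10 members over 42 LKO libraries of CT0 to CT40 (left) and 48 Flox libraries (right), coloured on a scale from 0 to 1. Stab1 and Stab2 have r of 0.873 in LKO and 0.909 in Flox, and the r of Stab1 with Kdr is 0.0129 in LKO and 0.668 in Flox.

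The 5 entries outside the members most like their mean level over the 48 Flox libraries were Adgrf5 (r = 0.929), Ehd3 (r = 0.911), Mmrn2 (r = 0.901), Lhfpl2 (r = 0.899) and Cd300lg (r = 0.899). Over the 42 LKO libraries of CT0 to CT40 their r with the members' mean level there ran from 0.752 for Lhfpl2 to 0.892 for Mmrn2.

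Of 15 further sinusoidal genes 11 were tested: 5 were lower at CT0 to CT4, 8 were higher at CT36 to CT40 and 8 fell on the second day in Flox, against 41.6%, 32% and 33.4% of entries. In Flox 9 fell on the second day when CT42 to CT46 were left out, against 27.4% of entries. The difference of the day changes was more positive in LKO for 10 of the 11, against 59.6% of entries, and for 5 of the 11 after median-ratio scaling, against 31.8%. It was for 9 of the 11 without CT42 to CT46, against 51.6%. Over all times 6 were higher in LKO, against 39.4% of entries, among them Tspan7 by 0.33 ± 0.09 (limma adjusted p = 0.000733), the fatty acid receptor Cd36 by 0.65 ± 0.18 (limma adjusted p = 0.00154) and the mannose receptor Mrc1 by 0.62 ± 0.17 (limma adjusted p = 0.00157). Cd36 and Mrc1 are also macrophage genes, and at CT42 to CT46 they differed by 3.17 and 4.33, and without that window they differed over all times by 0.29 and 0.09, neither called, while Tspan7 differed by 0.30 and was called. Of the 11, 3 were then higher, against 32.3% of entries.

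Among 14 tested genes shared by all endothelium, 9 were higher and 1 lower in LKO over all times, and without CT42 to CT46 8 were higher and 2 lower. The shares of all entries were 39.4% and 19.1% with that window and 32.3% and 30.6% without it. Ramp2, a co-receptor for adrenomedullin, was higher by 0.60 ± 0.08 (limma adjusted p = 4.28e-10), the flow-responsive factor Klf2 by 0.46 ± 0.07 (limma adjusted p = 1.00e-07) and the secreted Egfl7 by 0.44 ± 0.08 (limma adjusted p = 1.08e-06). Without that window they were still called, at 0.63 for Ramp2, 0.32 for Klf2 and 0.52 for Egfl7. At CT36 to CT40 12 of the 14 were higher, against 32% of entries, and after median-ratio scaling 7 were higher and 1 lower, against 17.9% and 16.6%. In Flox 8 fell on the second day, against 33.4% of entries, 8 without CT42 to CT46 and 4 after median-ratio scaling, against 20.3%. The difference of the day changes was called for 7, each more positive in LKO, against 59.6% of entries. Without CT42 to CT46 it was called for 8, where 5106 of 9901 entries were more positive. After median-ratio scaling 3 were more positive and 3 more negative, against 31.8% and 29.3% of entries.

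Over all times 3897 of 9901 entries (39.4%) were higher in LKO and 1896 (19.1%) lower, and without CT42 to CT46 3200 were higher and 3030 lower. After median-ratio scaling 3269 were higher and 3018 lower, and after quantile normalization 2796 were higher and 3666 lower. Of genes of capillaries and large vessels the 4 tested were higher in LKO over all times and without CT42 to CT46, and 3 were after either scaling. They included Ly6a by 0.93 ± 0.08 (limma adjusted p = 7.4e-15), Fabp4 by 0.70 ± 0.13 (limma adjusted p = 3.66e-06) and Plvap, the diaphragm protein of capillary pores, by 0.33 ± 0.08 (limma adjusted p = 0.000132). They differed by 0.92, 0.49 and 0.32 without CT42 to CT46, all called. For the pathway around Kdr, 4 of 7 tested VEGF ligands and receptors were higher over all times, Flt4, Flt1, Vegfb and Vegfc, with differences of 0.22, 0.33, 0.13 and 0.09. After median-ratio scaling 2 of the 7 were higher, and quantile normalization left 1 called, lower, with Vegfc at -0.03. Flt1, which differed by 3.22 at CT42 to CT46, turned to -0.09 over all times without that window and was then called lower. In that fit 3 of the 7 were higher and 2 lower. Vegfa, the main ligand of the Kdr receptor, differed by 0.14 ± 0.09, which did not pass the test.

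For the pathway around Bmp2, 4 of 15 tested receptors, co-receptors and targets were higher and 2 lower in LKO over all times. Of all entries 39.4% were higher and 19.1% lower, so these counts do not exceed the background. After median-ratio scaling 2 of the 15 were higher and 4 lower, against 3269 and 3018 of 9901 entries. With CT42 to CT46 left out 5 were higher and 4 lower, against 3200 and 3030 of 9901 entries. The median of the 15 was then -0.02, against 0.09 with all libraries. Hamp2, a hepcidin gene, was higher by 1.67 ± 0.25 (limma adjusted p = 8.8e-08) and the target Id1 by 0.82 ± 0.13 (limma adjusted p = 1.68e-07). The Hamp2 value does not give that of other hepcidin genes, and hepcidin protein and iron were not measured here. Tfr2, the transferrin receptor of hepatocytes that takes part in iron sensing, was lower by -0.43 ± 0.06 (limma adjusted p = 1.62e-09). The 3 were still called without CT42 to CT46, at 1.59, 0.74 and -0.37. Of the other genes listed as ligands of liver endothelium, Igf1 (0.04 ± 0.05) and Rspo3 (0.00 ± 0.05) passed the filter and did not pass the test. Without CT42 to CT46 1 of the 2 was called higher. RNA of whole liver does not tell which cells these transcripts came from, so the values are not a measure of endothelial signals.

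Other cell types of the liver were read in the same fit over all times. Of 12 Kupffer cell markers 3 were higher in LKO, of 9 stellate cell markers 6 were higher, and of 9 hepatocyte markers 6 were lower, against 39.4% of entries higher and 19.1% lower. In the fit without CT42 to CT46 4 Kupffer cell markers were higher and 1 lower, 6 stellate cell markers were higher, and 6 hepatocyte markers were lower and 1 higher, against 32.3% of entries higher and 30.6% lower. The 8 alveolar macrophage markers and the 2 tested B cell markers were higher, as was the 1 tested platelet marker. Without CT42 to CT46 4 of the 8 alveolar macrophage markers, a list that includes Mrc1, were higher. Of 3 tested lung endothelial markers 2 were higher and 1 lower, and of 2 tested lymphatic markers 1 was higher and 1 lower. These counts for B cell, platelet, lung endothelial and lymphatic markers were as large without that window. The defining Kupffer marker Clec4f averaged 15.2 ± 5.81 FPKM on the second day and 15.4 ± 5.32 FPKM on the first in LKO, and 14.4 ± 4.29 FPKM on the second and 14.3 ± 3.97 FPKM on the first in Flox. The endothelial cadherin Cdh5 averaged 3.26 ± 1.02 FPKM on the second day and 2.61 ± 0.758 FPKM on the first in LKO, and 2.29 ± 0.641 FPKM on the second and 3.46 ± 0.978 FPKM on the first in Flox. Cdh5, the marker of all endothelium, thus fell in Flox, by 0.44 ± 0.09 (limma adjusted p = 0.000289), and rose in LKO, by 0.23 ± 0.09 (limma adjusted p = 0.0247). After median-ratio scaling the fall in Flox was still called, at -0.34, and the LKO value was 0.03, not called, and it was -0.05 after quantile normalization. Both were called without CT42 to CT46, at 0.27 in LKO and -0.49 in Flox.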

How the data were processed

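RNA of whole liver from 96 mice was sequenced, 1 library per mouse. The deposited table gives FPKM values made by the authors. Per the submitters' processing notes FastQC, Trimmomatic, HISAT2 and Cufflinks were used with mm10; tool versions were not given in the sources used here. FPKM keeps no counts, so depth and counting error are unknown. Values were tested as log2(FPKM + 1) in limma 3.58.1 (R 4.3.3), with 13094 entries read, 9901 kept at a mean of at least 1 FPKM, and Benjamini-Hochberg adjustment at 0.05. Fold changes on this scale understate those of low genes. Fits covered genotype over all times, 8 windows, day and genotype by day, and 24 h and 12 h waves. The genotype difference at CT12 to CT16 and the difference of the day changes were tested on simulated data. Those data held independent values with known changes and no rhythm, and the other fits were not tested in this way. Descriptions used Python 3.11.15, numpy 2.4.6, pandas 2.3.3 and scipy 1.17.1. Alternatives changed the pseudocount, filter, scaling, moderation, letters and libraries; leaving out all of CT42 to CT46 was chosen after seeing the data. The members and gene lists were chosen with earlier results of these data known. All 10 members are named; of the other lists, the 3 lowest p-values over all times, beside markers of other cells, and of all entries the 5 most like the members' mean. Cdh5, Vegfa, Vegfc, Igf1 and Rspo3 were named after their values were seen. Replicate letters A, B and C were not taken as pairs, since the labels do not say what a letter marks. Over 20 time points the difference of letter A from letter B, over all tested entries, correlated between the genotypes at -0.402 to 0.338. Of these values 7 were above 0.1, which cannot tell whether letters pair the mice.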

Additional observations from a re-analysis of the deposited data

Results flagged for a closer look

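In windows of 6 libraries, 19 of 160 groups held a library far from the others by Dixon's test on FPKM. For independent, normally distributed values chance flags about 1 in 20, or 8 groups. Members share libraries and each window joins 3 time points, so 8 is only a rough guide. The Flox library of CT14 with letter A was high for Clec4g at 26.9 FPKM, for Gpr182 at 11.1 FPKM and for Fcgr2b at 18.95 FPKM. The Flox library of CT6 with letter B was high for Stab1 at 2.35 FPKM and for Lyve1 at 3.97 FPKM. The LKO library of CT20 with letter A was high for both stabilins, Stab1 at 3.25 FPKM (others up to 1.53) and Stab2 at 3.71 FPKM (others up to 1.56). The LKO library of CT8 with letter A was low for Pecam1 at 1.24 FPKM and for Bmp2 at 0.9015 FPKM. The LKO library of CT6 with letter A was high for Kdr at 2.035 FPKM and for Lyve1 at 1.32 FPKM.

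Lyve1 was also high in single Flox libraries, at 3.435 FPKM at CT2 with letter B, 2.12 FPKM at CT12 with letter A and 2.97 FPKM at CT28 with letter A. The other flags were Pecam1 at 4.185 FPKM in the library labelled LKO of CT44 with letter B and 1.03 FPKM in the Flox library of CT30 with letter B, Oit3 at 6.85 FPKM in the LKO library of CT16 with letter B, and Bmp2 at 2.11 FPKM in the library labelled LKO of CT46 with letter A and 2.40 FPKM in the Flox library of CT26 with letter C.

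The change from the first to the second day differed between LKO and Flox, by a test of the difference itself, for Gpr182 by 0.96, Kdr by 0.88, Fcgr2b by 0.73, Oit3 by 0.58, Pecam1 by 0.49 and Bmp2 by 0.32 on the log2 scale. Of all entries 59.6% were called more positive in LKO, and the median over all entries was 0.34. After median-ratio scaling only Gpr182 and Kdr of the members were called more positive. The 24 h wave of Fcgr2b differed between genotypes (limma adjusted p = 0.00385), against 35.0% of entries, and this call was lost without CT42 to CT46 and after either scaling.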

How the results depend on the processing

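Of the values of single members under alternatives, 607 kept their direction and side of the threshold, 89 lost a call, 14 gained one and 19 changed sign. Of the counts of members, 342 stayed within 1.5 times and 82 did not. FPKM gives no depth, so low members such as Lyve1 and Stab1 have unknown counting error, and a change of scaling moves single values by unequal amounts. At CT42 to CT46 the median of all entries was 0.49 in the deposited values, -0.03 with median-ratio scaling and -0.19 with quantile normalization. Some counts of 0 without a letter came from fits that called 0 of 9901 entries, at CT0 to CT4 (without A) and for the Flox day change (without B). The fit at CT6 to CT10 (without B) called 1 entry. Other counts of 0 came from fits that called many entries. At CT36 to CT40 without B 1052 entries were higher, and over all times 1390 (without A) and 788 (without B) were lower.

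Over all times, members higher numbered 1 at a mean of at least 5 FPKM and 1 after quantile normalization, and 1 to 3 without a letter; members lower numbered 0 with a pseudocount of 0.1, at 5 FPKM, with Rn45s as a covariate and without either letter. The replicate block changed the count of members lower to 0, from 1, and moved no other count by over 1.5 times. The labels do not say what a letter marks, and r above 0.1 at 7 of 20 time points cannot tell whether letters pair the mice. Signs changed for Pecam1 (-0.0135) and Bmp2 (-0.00669) after quantile normalization and for Gpr182 (0.0496) with Rn45s.

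By window, the 5 FPKM filter, which leaves 3 members, gave 1 lower at CT0 to CT4 and at CT6 to CT10, 0 higher and 0 lower at CT12 to CT16, 3 higher at CT36 to CT40 and 1 higher at CT42 to CT46, and 3 whose difference varied among windows. Without a letter, members lower numbered 0 to 2 at CT0 to CT4, 0 to 3 at CT6 to CT10 and 0 at CT12 to CT16, with 0 to 1 and 0 to 2 higher in the last 2 of these; 0 to 7 were higher at CT36 to CT40, 1 to 2 higher and 0 to 1 lower at CT42 to CT46, and 2 to 7 varied among windows. At CT12 to CT16 2 were higher after either scaling and 0 lower with Rn45s. At CT36 to CT40 4 were higher after quantile normalization. At CT42 to CT46 1 was higher after either scaling and without the Flox library of CT42 with letter B, and 4 (median-ratio) and 8 (quantile) were lower. Pecam1 there was -0.0889 and -0.45.

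For the day change in LKO, 0 were higher after either scaling and 0 to 3 without a letter; 0 were lower at 5 FPKM, 1 without a letter and 1 without the 6 or 12 libraries of CT42 to CT46. After median-ratio scaling and quantile normalization Clec4g was -0.13 and -0.17, Pecam1 -0.0218 and -0.0938, and Oit3 -0.0304 and -0.0974. Bmp2 ran from -0.12 to 0.0170 without a letter and was 0.0199 without the 6 or 12 libraries. In Flox 2 were lower at 5 FPKM, 3 after quantile normalization and 0 to 4 without a letter. For the difference, 2 were higher at 5 FPKM, 2 after median-ratio scaling, 3 after quantile normalization and 3 to 7 without a letter, and 1 and 2 were lower after the scalings. Stab2 was -0.17 and -0.30, Clec4g -0.0978 and -0.0567, and Bmp2 -0.0668 after quantile normalization.

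For 24 h waves in LKO, 1 was called after median-ratio scaling and 1 without a letter. In Flox 0 were called with a pseudocount of 0.1, at 5 FPKM, after either scaling, with Rn45s and without the Flox library of CT42, 2 with a pseudocount of 5, 3 without CT42 to CT46 and 0 to 2 without a letter. The 24 h difference was called for 3 with a pseudocount of 5, and for 0 after either scaling, without a letter and without the 6 LKO libraries. For 12 h waves in LKO, 1 was called at 5 FPKM, 6 and 7 after median-ratio scaling and quantile normalization, and 0 without a letter and without the 6 or 12 libraries. The 12 h difference was called for 3 and 2 after the scalings. The cause of these changes was not tested.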
